A study of Mus musculus with 8 samples.

Results

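Proteins that leave hepatocytes fold in the endoplasmic reticulum (ER), and 40 genes of that process were followed in livers with and without hepatocytic Txnrd1, a thioredoxin reductase that works outside the ER, in cytosol and nucleus. The genes were taken by name and not by a measured threshold: 13 disulfide isomerases and their relatives, 3 oxidases, 12 chaperones and chaperone partners, 4 stress sensors or their transcription factors, and 8 genes of ER-associated degradation and translocation. All 40 were measured, by 96 probe sets, out of 18193 genes with a probe set of 1 symbol. No genotype difference passed the test for any of the 40.

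The livers came from young male mice, singly housed for 10 days, with 14 h of light and 10 h of dark. There was 1 Affymetrix mouse expression array per animal. Controls were txnrd1 cond/+ with no Cre transgene (albCre0; animals 70, 71, 80 and 82), so they kept 1 wild-type and 1 conditional allele. The others were txnrd1 cond/-, with 1 conditional and 1 null allele, and carried 1 copy of the albumin promoter-driven Cre transgene (albCre1; animals 69, 72, 73 and 81), and their livers are called txnrd1-/- below because the albumin promoter makes Cre in hepatocytes, which then lose the conditional allele. Other liver cells do not make albumin and so do not delete it, the RNA was from whole liver, and the presence of Cre, the null allele in all cells and the loss of Txnrd1 in hepatocytes cannot be told apart in this design. A lower value could come from fewer cells of a type or from less RNA per cell, and whole-liver RNA does not separate these. Every deposited value is a ratio, made by the authors, of a probe set in 1 liver to roughly its middle value among the 8, so a log2 ratio of 0 is the middle liver, and levels of different genes cannot be compared. For the same reason the level of hepatocyte markers could not be checked.

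Disulfide bonds are made in the ER by a relay. Protein disulfide isomerases, which share the thioredoxin fold, pass a disulfide to the folding protein or reshuffle a wrong one, and the Ero1 oxidases re-oxidize the isomerases. When unfolded protein builds up, the Hsp70 chaperone Hspa5 (BiP) is drawn away from the sensors Ern1 (IRE1), Eif2ak3 (PERK) and Atf6, and the resulting unfolded protein response raises transcription of chaperones, isomerases and degradation factors. In liver this system serves the heavy export of plasma proteins.

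A sequence known to pass that signal to genes is the ER stress response element, written as CCAAT, then 9 bases of any kind, then CCACG. The 250 bases before each start site in RefSeq (GRCm38.p6) were searched for it on both strands. A promoter was held for 34 of the 40 genes. Of those 34, 10 (29.4%) contained an exact match to the element, against 35 of 27025 genes with a promoter (0.13%). The genes were taken by name and the element is known from this response, so the higher share is not an independent finding. The arms alone were commoner: CCAAT occurred in 24 of the 34 (70.6%) and in 37.5% of all genes, and CCACG in 24 of the 34 (70.6%) and in 31.0%. Promoters of Tmx3, Erp29, Hyou1, Manf, Atf6 and Derl1 were not held. Upstream sequence is shown in full for Hspa5, the classical target of the response, and for Creld2, whose ratio varied widely between animals. Capitals mark the arms, 5′ to 3′ on the strand of the gene. In Hspa5 the element ended 47 bases before the start site and read forward, and in Creld2 it ended 108 bases before and read on the opposite strand, so that it appears as CGTGG, 9 bases, ATTGG.
Hspa5, chr2:34771840-34772089, plus strand: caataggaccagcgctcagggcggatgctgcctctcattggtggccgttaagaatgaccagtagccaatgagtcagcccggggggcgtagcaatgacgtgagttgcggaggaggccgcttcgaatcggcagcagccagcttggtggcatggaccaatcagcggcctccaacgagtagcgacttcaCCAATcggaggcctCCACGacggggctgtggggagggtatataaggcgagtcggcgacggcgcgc
Creld2, chr15:88819396-88819645, plus strand: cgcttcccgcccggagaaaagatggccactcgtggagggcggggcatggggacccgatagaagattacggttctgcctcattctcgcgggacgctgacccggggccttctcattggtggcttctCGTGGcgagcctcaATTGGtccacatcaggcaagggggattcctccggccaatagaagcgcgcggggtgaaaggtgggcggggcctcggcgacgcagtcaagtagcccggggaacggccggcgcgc

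The other 8 genes with the element are shown as 39-base windows around it, to compare the spacer and the flanks. Hsp90b1 held 2 elements. Those of Ero1b, Calr and Derl3, and the second of Hsp90b1, lay on the opposite strand.
Hsp90b1, chr10:86705628-86705666, minus strand: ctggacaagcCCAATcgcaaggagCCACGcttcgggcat
Hsp90b1, chr10:86705523-86705561, minus strand: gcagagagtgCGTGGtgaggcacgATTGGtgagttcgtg
Pdia6, chr12:17266481-17266519, plus strand: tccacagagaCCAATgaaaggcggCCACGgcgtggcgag
Canx, chr11:50325790-50325828, minus strand: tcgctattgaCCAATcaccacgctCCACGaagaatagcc
Dnajc3, chr14:118937817-118937855, plus strand: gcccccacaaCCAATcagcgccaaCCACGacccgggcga
Syvn1, chr19:6046522-6046560, plus strand: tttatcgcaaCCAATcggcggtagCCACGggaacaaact
Ero1b, chr13:12565672-12565710, plus strand: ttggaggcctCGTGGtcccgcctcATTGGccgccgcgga
Calr, chr8:84847065-84847103, minus strand: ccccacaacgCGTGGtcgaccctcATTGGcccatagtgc
Derl3, chr10:75893232-75893270, plus strand: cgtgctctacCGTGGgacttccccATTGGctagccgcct

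The arms and the length of the spacer were fixed by the search, and the 9 spacer bases differed from gene to gene. The element was found in 1 disulfide isomerase (Pdia6), 1 oxidase (Ero1b), 6 chaperones or chaperone partners (Hspa5, Hsp90b1, Calr, Canx, Dnajc3 and Creld2) and 2 degradation genes (Syvn1 and Derl3). A match is an exact string in this window and not a test of binding. Near matches were not counted, so a gene without a match may still hold a variant of the element.

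Hspa5, which encodes the BiP chaperone itself, was close to its median in most livers. Its log2 ratio was -0.10, 0.28, 0.09 and -0.19 in the control animals 70, 71, 80 and 82, and -0.08, -0.18, 0.07 and -0.00 in the txnrd1-/- animals 69, 72, 73 and 81; all values below are in this order of animals. The highest and the lowest liver were both controls, and the txnrd1-/- values lay between them. Txnrd1-/- over control, the log2 fold change was -0.07 (SE 0.12, limma, adjusted p = 0.9999), with a 95% interval of -0.35 to 0.21, which corresponds to at most 1.27-fold lower and 1.15-fold higher.

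Across the 40 genes the same held. With an adjusted p no higher than 0.05 and 1.5-fold as the minimum for a call, limma called 15 of 18193 genes (0.0824%) and 0 of the 40. At an unadjusted p of at most 0.05, 422 genes passed (2.32%), 119 of them with a 1.5-fold difference (0.654%), and again 0 of the 40. The values of the genotypes did not overlap for 311 of 18192 genes with a value in every liver (1.71%), and they overlapped for each of the 40. Log2 fold changes of the 40 ran from -0.28 to 0.30 with a median of -0.04; 16 were above 0 and 24 below, and the median over all genes was 0.00.

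How large a difference these livers could have hidden is given by the intervals. For 33 of the 40 the 95% interval lay within 1.5-fold in both directions, a property of 82.5% of all genes, and for 39 within 2-fold, as for 97.2% of all genes. The exceptions at 1.5-fold were Txndc5, Ero1a, Dnajb9, Sdf2l1, Creld2, Syvn1 and Derl3, and the exception at 2-fold was Derl3. With 4 livers of each genotype, a 1.5-fold fall lay within the error for Txndc5, Ero1a and Sdf2l1. A 1.5-fold rise lay within it for Dnajb9, Syvn1 and Derl3, and either lay within it for Creld2.

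**Figure D1:**
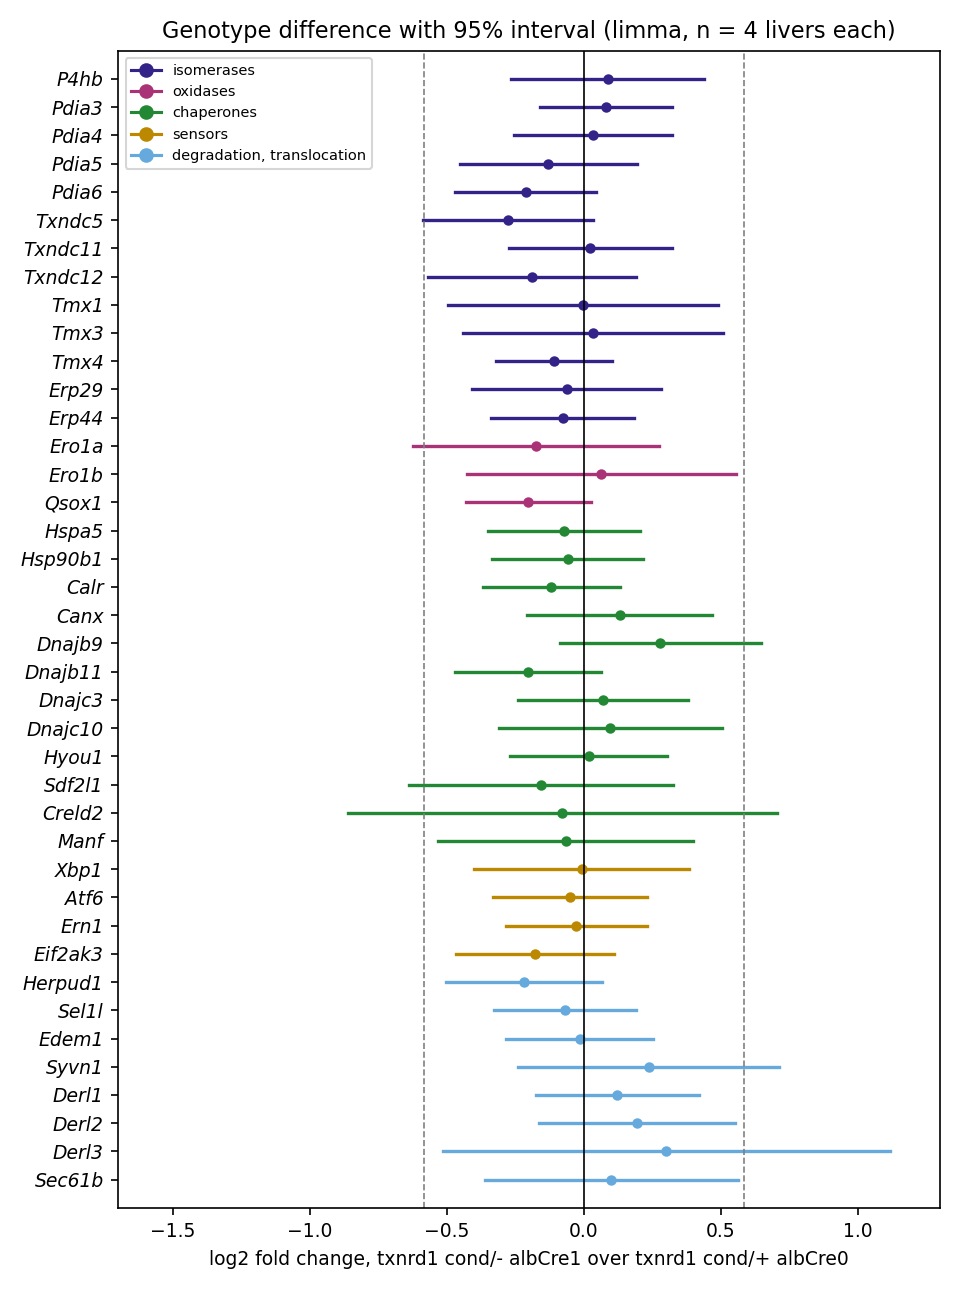
Log2 fold change of each of the 40 genes, txnrd1 cond/- albCre1 over txnrd1 cond/+ albCre0, with the 95% interval from limma (n = 4 livers each) and dashed lines at 1.5-fold; colours give the 5 gene groups. Every interval crosses 0, 33 stay between the dashed lines, and those of Creld2 and Derl3 are wide.

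Disulfide isomerases and their relatives had a median log2 fold change of -0.06 over 13 genes, with 5 above 0 and 8 below. P4hb, the founding protein disulfide isomerase, had the highest. P4hb stood at log2 ratios of 0.00, -0.01, 0.35 and -0.31 in controls and -0.05, -0.11, 0.21 and 0.33 in txnrd1-/- livers. Controls held both extremes, and the log2 fold change was 0.09 (SE 0.16, 95% interval -0.26 to 0.44). Txndc5, an isomerase with several thioredoxin domains, had the lowest. It stood at -0.10, 0.08, 0.51 and 0.13 in controls and at -0.06, -0.21, 0.02 and -0.24 in txnrd1-/- livers, and controls 71, 80 and 82 were above every txnrd1-/- liver while control 70 lay among them. For Txndc5 the log2 fold change was -0.28 (SE 0.14, 95% interval -0.59 to 0.03), and an exact permutation test over the livers gave p = 0.086, where 4 against 4 can reach 0.0286 at the lowest.

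Of the classical family, Pdia3 (ERp57), which works with the lectin chaperones on glycoproteins, had a log2 fold change of 0.08, Pdia4 (ERp72) of 0.03, Pdia5 of -0.13 and Pdia6 (P5) of -0.21 (SE 0.12, 95% interval -0.47 to 0.05). Pdia6 is the isomerase with the promoter element shown above. Its log2 ratio was 0.11, 0.20, -0.05 and 0.05 in controls and -0.22, -0.33, 0.08 and -0.08 in txnrd1-/- livers, so 3 txnrd1-/- animals lay under every control and animal 73 lay among them. The membrane-anchored relatives Tmx1, Tmx3 and Tmx4 had log2 fold changes of -0.00, 0.03 and -0.11. The isomerase interval was narrowest for Tmx4, at -0.32 to 0.10, and widest for Tmx1, at -0.50 to 0.49. Tmx1 stood at 0.10, 0.01, 0.32 and -0.79 in controls and at 0.07, -0.32, 0.05 and -0.17 in txnrd1-/- livers, with control 82 far below the rest. Txndc11 and Txndc12 (ERp18) had 0.02 and -0.19. Erp44, which retains oxidases and unassembled secretory proteins in the early secretory pathway, had -0.08, and Erp29, a relative that lacks the active-site cysteine pair, had -0.06.

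Disulfide isomerases were then set against the other genes of the system. The median log2 fold change was -0.06 for the 13 isomerases and -0.03 for the 27 others, a difference of -0.04. The isomerase median minus the other median was also taken in each liver. This contrast had a mean of 0.0139 in controls and -0.0529 in txnrd1-/- livers. Between animals of 1 genotype its pooled SD was 0.0791, and the genotype difference in it was not tested. In single livers that contrast was 0.01, -0.09, -0.02 and 0.15 in controls and -0.01, -0.08, -0.02 and -0.11 in txnrd1-/- livers. The isomerase median was the lower one in 2 of 4 controls and in 4 of 4 txnrd1-/- livers, and the genotypes overlapped. The contrast reversed within the animals numbered 69 to 73, where the difference in log2 fold change was 0.04. Within those numbered 80 to 82 it was -0.14, with animal 81 as the only txnrd1-/- liver, against controls 80 and 82. The labels do not say whether these number ranges are batches. With Dnajc10 counted as an isomerase, and Erp29 and Txndc11 not, the difference was -0.00.

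**Figure D2:**
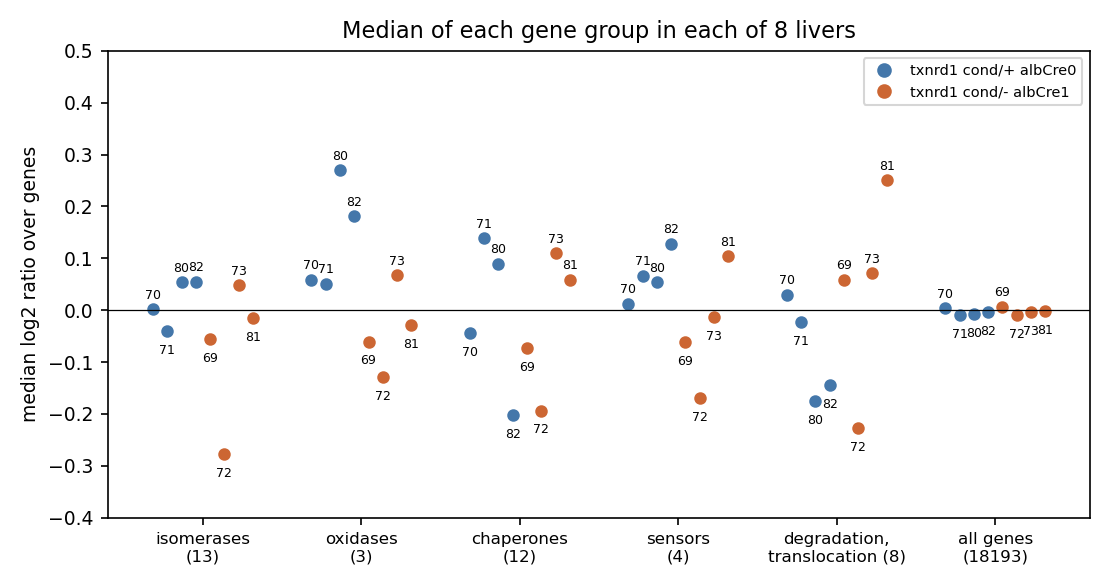
Median log2 ratio over the genes of each group in each of the 8 livers, with the median over all 18193 genes at the right; points are animals, labelled by number and coloured by genotype, and the number of genes is in brackets. Genotypes overlap in every group, and animal 72 has the lowest median for isomerases, oxidases, sensors and degradation genes.

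Oxidases had a median log2 fold change of -0.17 over 3 genes, with 1 above 0 and 2 below. Qsox1, a sulfhydryl oxidase that makes disulfides late in the secretory pathway, had the lowest value. Qsox1 stood at 0.06, 0.08, 0.27 and 0.18 in controls and at -0.19, 0.09, -0.05 and -0.06 in txnrd1-/- livers. Animals 69, 73 and 81 lay below all controls, and animal 72 lay among them. For Qsox1 the log2 fold change was -0.20 (SE 0.10, 95% interval -0.43 to 0.02; exact permutation p = 0.086). It rested on some of its 4 probe sets, whose log2 fold changes ran from -0.36 to 0.00. The probe set at -0.36 was the only 1 of the 96 at an unadjusted p of at most 0.05, which 1.82% of all 45037 probe sets reached.

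Ero1a and Ero1b are the flavin oxidases that feed disulfides to the isomerases. Ero1b had log2 ratios of -0.11, 0.05, -0.52 and 0.64 in controls and 0.01, -0.13, 0.12 and 0.32 in txnrd1-/- livers, with a log2 fold change of 0.06 (SE 0.22). Control animals 80 and 82 held the extremes. Ero1a stood at 0.25, -0.20, 0.57 and -0.34 in controls and at -0.06, -0.41, 0.07 and -0.03 in txnrd1-/- livers, with a log2 fold change of -0.17 (SE 0.20). In both genes the controls spread more widely than the txnrd1-/- livers, with an SD of 0.482 against 0.188 for Ero1b and 0.418 against 0.207 for Ero1a; this difference in spread was not tested.

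Chaperones and their partners had a median log2 fold change of -0.06 over 12 genes, with 5 above 0 and 7 below. Dnajb9 (ERdj4), a J protein that delivers clients to Hspa5, had the highest. It stood at -0.04, 0.17, -0.56 and -0.38 in controls and at -0.07, 0.03, 0.29 and 0.05 in txnrd1-/- livers. Controls 80 and 82 were the lowest livers, whereas controls 70 and 71 lay among the txnrd1-/- animals. Its log2 fold change was 0.28 (SE 0.16, 95% interval -0.09 to 0.65). Dnajb11 (ERdj3), another J protein of Hspa5, had the lowest. Its log2 ratio was -0.03, 0.02, 0.33 and 0.13 in controls and -0.05, -0.20, 0.11 and -0.23 in txnrd1-/- livers. Animals 72 and 81 were the lowest livers, and the log2 fold change was -0.20 (SE 0.12, 95% interval -0.47 to 0.06).

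The lectin chaperones Calr and Canx, which hold glycoproteins for Pdia3, had log2 fold changes of -0.12 (95% interval -0.37 to 0.13) and 0.13 (-0.21 to 0.47). Hsp90b1 (GRP94), the Hsp90 of the ER, had -0.06, and Hyou1 (GRP170), a nucleotide exchange factor of Hspa5, had 0.02. Dnajc3 (P58IPK) and Dnajc10 (ERdj5), J proteins of which the latter also reduces disulfides, had 0.07 and 0.10. None of these 6 passed the test, and all 6 intervals lay within 1.5-fold.

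Creld2, Manf and Sdf2l1 showed a wide spread between livers, with little difference between the genotypes; they were singled out after their values were seen. Each is an ER-resident protein known to be induced when folding fails. Creld2 had log2 ratios of -0.53, 0.13, 0.42 and -0.16 in controls and -0.16, -1.14, 0.65 and 0.20 in txnrd1-/- livers. Manf had -0.34, 0.18, 0.15 and 0.11 in controls and -0.12, -0.49, 0.53 and -0.10 in txnrd1-/- livers. Sdf2l1 had 0.03, -0.04, -0.06 and 0.12 in controls and -0.25, -0.79, 0.37 and 0.09 in txnrd1-/- livers. For all 3 genes txnrd1-/- animal 72 was the lowest liver and txnrd1-/- animal 73 the highest. Their log2 fold changes were -0.08 (SE 0.35), -0.07 (SE 0.21) and -0.16 (SE 0.22). Over all 8 livers Creld2 had an SD of 0.568, Manf of 0.321 and Sdf2l1 of 0.342. The median SD was 0.204 over the 40 genes and 0.196 over all genes. Each of the 3 was read by 1 probe set, whereas 29 of the 40 are means of several. Such a spread was not particular to them, as Derl3 had an SD of 0.613 and Syvn1 of 0.351.

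**Figure D3:**
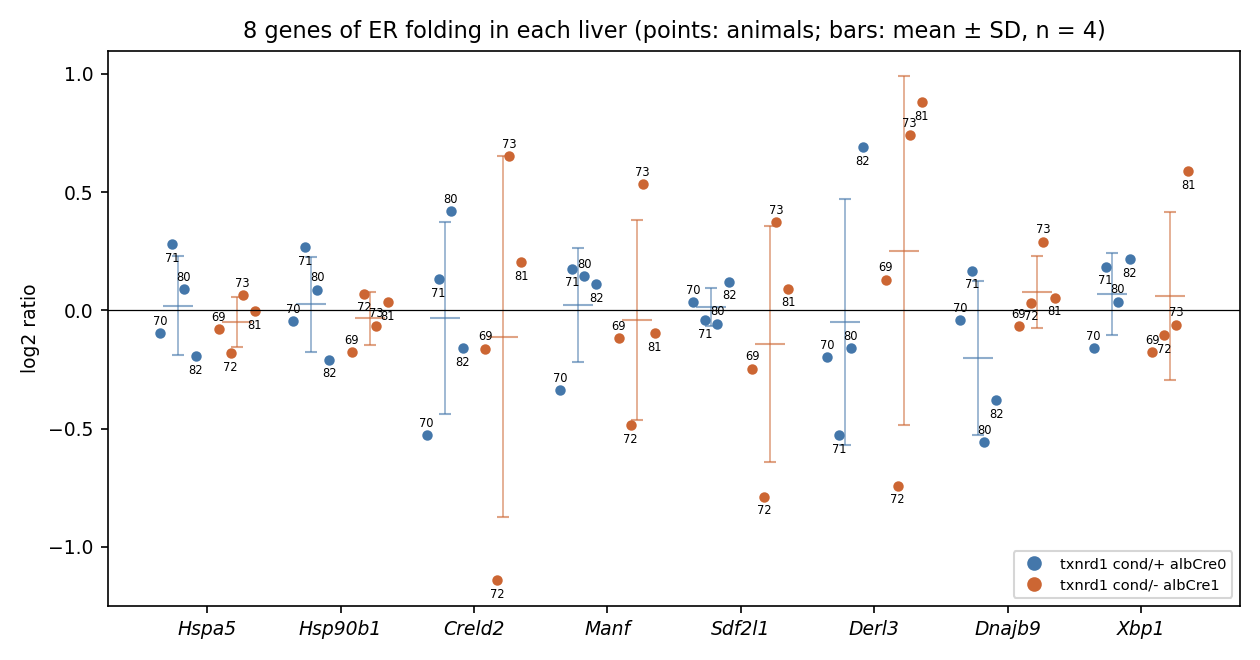
Log2 ratio of 8 genes in each liver; points are animals labelled by number, and the dash and bars are the mean and SD of the 4 animals of a genotype. Creld2, Manf and Sdf2l1 are lowest in animal 72 and highest in animal 73, both txnrd1-/-, and Hspa5 and Hsp90b1 are highest in control animal 71.

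Sensors and transcription factors had log2 fold changes below 0 for 4 of 4 genes, with a median of -0.04. Eif2ak3, the kinase PERK that slows translation, had the lowest. In single livers it was at 0.25, -0.04, 0.07 and 0.02 in controls and -0.05, -0.36, 0.16 and -0.16 in txnrd1-/- livers, and animal 72 was the lowest. Between the genotypes the log2 fold change was -0.18 (SE 0.13, 95% interval -0.47 to 0.11). Xbp1, whose mRNA is spliced by Ern1 to make an active factor, was nearest to 0. It stood at -0.16, 0.18, 0.04 and 0.22 in controls and at -0.18, -0.10, -0.06 and 0.59 in txnrd1-/- livers, where animal 81 stood apart. The log2 fold change was -0.01 (SE 0.18, 95% interval -0.40 to 0.39). Atf6 and Ern1 had -0.05 and -0.03. The sensors act through cleavage, phosphorylation and splicing, and these mRNA ratios do not measure any of those steps.

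Degradation and translocation genes had a median log2 fold change of 0.11 over 8 genes, with 5 above 0 and 3 below. Derl3, a derlin of the retrotranslocation machinery, had the highest value and the widest interval of the 40. It stood at -0.20, -0.53, -0.16 and 0.69 in controls and at 0.13, -0.74, 0.74 and 0.88 in txnrd1-/- livers. Animal 72 was the lowest and animal 81 the highest, so 1 genotype held both ends. For Derl3 the log2 fold change was 0.30 (SE 0.37, 95% interval -0.51 to 1.12). Herpud1, which organizes the degradation complex at the membrane, had the lowest, with 0.23, -0.09, 0.21 and 0.01 in controls and 0.05, -0.18, 0.00 and -0.38 in txnrd1-/- livers. Animal 81 was the lowest liver for it, and controls 70 and 80 were the highest. The difference was -0.22 on the log2 scale (SE 0.13, 95% interval -0.50 to 0.07).

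Syvn1, the ubiquitin ligase HRD1, stood at -0.10, 0.49, -0.27 and -0.48 in controls and at 0.07, -0.20, 0.29 and 0.44 in txnrd1-/- livers. Control 71 was the highest liver and control 82 the lowest, and the log2 fold change was 0.24 (SE 0.21). Its adaptor Sel1l had -0.07 (95% interval -0.33 to 0.19). The other derlins Derl1 and Derl2 had 0.12 and 0.20, and none of the 3 derlins passed the test. Within animals 69 to 73 the values of Derl1 and Derl2 turned to -0.03 and -0.09. For all 3 derlins the highest liver was animal 81; Derl1 was at 0.02, -0.12, -0.19 and -0.10 in controls and at 0.01, -0.28, 0.04 and 0.34 in txnrd1-/- livers, and Derl2 at 0.04, -0.00, -0.38 and -0.30 in controls and at 0.11, -0.32, -0.01 and 0.35. Edem1, which marks misfolded glycoproteins for disposal, had -0.01, and Sec61b, a subunit of the protein-conducting channel, had 0.10.

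**Figure D4:**
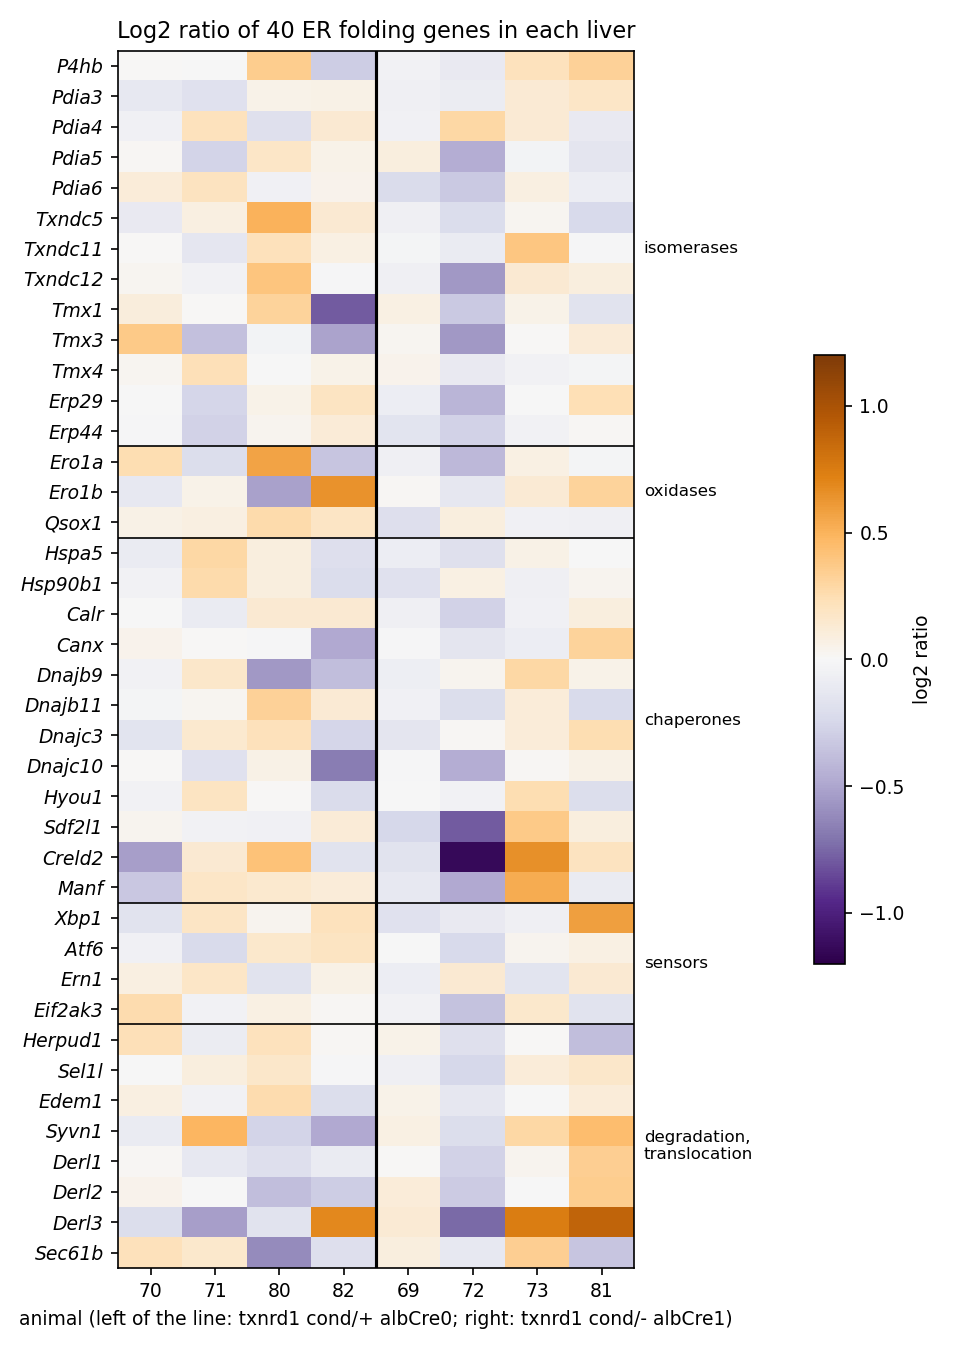
Log2 ratio of each of the 40 genes (rows, in their 5 groups) in each of the 8 livers (columns), controls to the left of the line; orange is above and purple below the probe set's middle liver. No row changes colour at the line throughout, and the column of animal 72 is mostly purple.

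Animal 72 was low for most of the genes. This txnrd1-/- liver was below 0 for 34 of the 40 genes (85%) and for 12 of the 13 isomerases (92.3%), against 52.1% of all genes. It was the lowest liver for 16 of the 40 (40%) and the highest for 1 (Pdia4). Over all genes it was the lowest for 16.8% and the highest for 16.9%. Among cell type markers its median log2 ratio was 0.10 over 6 hepatocyte markers and -0.30 over 5 endothelial markers, the lowest endothelial value of the 8 livers. The stellate, Kupffer cell, cholangiocyte, plasma and B cell and neutrophil medians were -0.13, -0.10, -0.10, -0.08 and -0.02, and the pancreatic median was 0.13. With array weights, its array had the lowest weight of the 8, at 0.46, and control 82 the next, at 0.493. The part of cell makeup or of array precision in the low ER genes was not tested. Without animal 72 the median log2 fold change was -0.02 for the isomerases and 0.05 for the other genes.

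Control animal 71 carried pancreatic transcripts. All 8 pancreatic acinar markers measured were highest in it, at log2 ratios of 1.46 to 5.95, against -1.39 to 0.74 in the other 7 livers. This liver was the highest for 6 of the 40 genes (15%, against 9.63% of all genes), namely Pdia6, Tmx4, Hspa5, Hsp90b1, Ern1 and Syvn1. Animals 80, 81 and 73 were the highest for 10, 9 and 7 of the 40 (25%, 22.5% and 17.5%). Over all genes these 3 animals were the highest for 15.6%, 15% and 8.31%. The part of pancreatic RNA in these values was not tested. Without this animal the log2 fold changes of Hspa5 and Hsp90b1 were both 0.02, those of Dnajb9 and Syvn1 were 0.40 and 0.43, both at an unadjusted p of at most 0.05 but with a limma adjusted p of 0.9994, and the median over the 40 was -0.02. Markers of plasma cells, which also hold much ER, and of B cells were taken as 1 list, with medians from -0.08 to 0.12 over the 8 livers.

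Whether the other genes moved with Hspa5 from liver to liver was examined over the 8 animals. Pearson's r was above 0 for 29 and below 0 for 10 of the 39 genes, and 0 of 39 reached an adjusted p of at most 0.05 by Pearson's r or Spearman's rho in permutation tests over all pairings. Correlation with Hspa5 was not taken over all genes, which share these 8 arrays. No count of correlated genes therefore has a background share, and none is read as shared regulation. At an unadjusted p of at most 0.05 there was 1 gene by Pearson's r, Hsp90b1 (r = 0.73, permutation p = 0.040, adjusted p = 0.50; rho = 0.64, permutation p = 0.096). Without animals 71 and 82, the farthest from the Hspa5 median, its r was 0.12 over the 6 livers left, so this relation depended on those animals; leaving them out also narrows the range of Hspa5, and r was higher over these 6 livers than over 8 for 28 of the 39 genes. With the most variable probe set in place of the mean, Tmx1 and Hyou1 passed by Pearson's r (0.91 and 0.90, permutation adjusted p = 0.011 each) and not by Spearman's rho (adjusted p = 0.14 each). By Spearman's rho there were 2, Dnajc3 and Hyou1 (rho = 0.76 each, permutation p = 0.037, adjusted p = 0.45). With values centred on the genotype mean there were 4 by Pearson's r (Syvn1, Dnajc3, Hyou1 and Hsp90b1) and 5 by Spearman's rho (Hyou1, Creld2, Manf, Sel1l and Syvn1), with lowest adjusted permutation p of 0.31 and 0.36. Sorted by an exact match to the promoter element, the 10 genes that hold one had a median log2 fold change of 0.00. Of these, 5 were above 0 and 5 below, and 7 of their intervals lay within 1.5-fold. The 24 others with a promoter, which may hold near matches, had a median of -0.05.

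The 5 further lists of the same pathways gave 0 called genes. The median log2 fold change was 0.04 for 19 further isomerases and ER redox proteins, -0.04 for 19 glycoprotein folding and degradation genes and -0.04 for 6 further sensors and factors, and in limma 0 of these genes had an unadjusted p at or under 0.05. Of 19 translocon, signal peptidase and oligosaccharyltransferase genes (median 0.06), 1 was at an unadjusted p of at most 0.05, against 2.32% of all genes. This was Rpn1, a subunit of the oligosaccharyltransferase. Its log2 ratio was 0.03, 0.13, 0.29 and 0.39 in controls and -0.06, -0.17, -0.01 and -0.19 in txnrd1-/- livers. The genotypes do not overlap for it, as for 1.71% of all genes. The log2 fold change was -0.32 (SE 0.11), and limma's adjusted p was 0.9999.

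A list of 6 genes named as the PERK branch had a median log2 fold change of 0.20, and PERK activity itself was not measured. The transcription factors Atf4 and Ddit3 (CHOP) had -0.06 and -0.08. Trib3, a pseudokinase, and Asns, asparagine synthetase, had 0.95 (SE 0.38) and 0.92 (SE 0.33). In limma both were at an unadjusted p of at most 0.05 and 1.5-fold, as were 0.654% of all genes. Both had an adjusted p of 0.9999 in limma. Trib3 stood at -0.14, -0.53, -0.82 and 0.05 in controls and at 0.39, 0.27, -0.15 and 1.84 in txnrd1-/- livers. Asns stood at -0.31, -0.74, 0.08 and -1.03 in controls and at 0.30, -0.04, 0.06 and 1.35 in txnrd1-/- livers. In both, animal 81 was the highest liver and the genotypes overlapped. Xbp1 was also highest in animal 81.

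As a check of the genotype, 3 probe sets read Txnrd1 and they ran in different directions; the ratio of one was 0.41 to 0.90 in controls and 1.10 to 2.00 in txnrd1-/- livers, and those of the others were 0.993 to 1.51 and 1.03 to 1.33 in controls and 0.598 to 0.997 and 0.755 to 0.965 in txnrd1-/- livers. No source used here gives their place relative to the deleted part, and so they do not check the labels. Of the 29 ER genes with several probe sets, 14 had probe sets on both sides of 0, with the widest range for Ern1, from -0.18 to 0.20 over 5 probe sets. Sec61b was read by 1 probe set of its own and by another shared with a second symbol, which was not used.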

How the data were processed

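Liver RNA of 8 mice, 4 per genotype, was hybridized by the authors to 1 array per animal. What the authors deposited is a linear ratio per probe set and array, with array medians of 0.997 to 0.999 and with roughly 1 as the middle value of each probe set. RMA is named in the submitters' processing notes and GeneSpring in the study's methods; no source used here gives the RMA version or says which of them made the ratios. Because a ratio keeps no signal level, neither a minimum signal nor a pseudocount was applied.

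Of 45101 probe sets 64 controls were left out; 34945 carried 1 symbol in the platform annotation, 932 several and 9160 none, and 34741 of the first matched the RefSeq table of GRCm38.p6 by gene ID. Probe sets of 1 symbol were averaged per gene on log2 (18193 genes); 5 empty values were left empty. Groups and animal numbers come from the sample labels. Genotypes were compared with limma 3.58.1 in R 4.3.3 (lmFit, then eBayes) with Benjamini-Hochberg adjustment over all genes. Tests were 2-sided, on 6 residual plus 3.711 prior degrees of freedom. SE and 95% intervals come from that fit. Each array is 1 animal, and precision is limited by there being 8 arrays. Permutation tests enumerated all 70 splits of 4 against 4, or all 40320 pairings of 8 livers.

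The 40 genes, their groups and the further lists were chosen with earlier results of these data known. Genes given with every animal's value are Hspa5 and the highest and lowest log2 fold change in each group; Pdia6, Tmx1, Ero1a, Syvn1, Derl1, Derl2, Creld2, Manf, Sdf2l1, Rpn1, Trib3 and Asns were added after their values were seen. Alternatives were 2 other scalings, 2 other rules for 1 value per gene, robust and weighted fits, a test of each gene alone, the animal number range as a covariate and within each range, an SD filter, leaving out each animal, another membership of the isomerase group and, for correlations, values centred on the genotype mean; the fit without animal 71 was singled out after its pancreatic transcripts were seen. Code was tested on simulated data. Promoters, 250 bases before to 50 after each start site, are from RefSeq. Python 3.11.15 with matplotlib 3.10.9 drew the figures.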

Additional observations from a re-analysis of the deposited data

Results flagged for a closer look

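Each gene was examined in each genotype for a liver far from the other 3, by Dixon's test at its 95% critical value. Of 80 such groups of 4 livers, 7 were past it. Chance alone gives about 1 in 20 for independent, normally distributed values, but all the groups share the same arrays. The share of all genes past this value was not counted, so the 7 have no background and are not read as particular to these genes. In txnrd1-/- livers, animal 72 was low for the membrane isomerase Tmx3 at a log2 ratio of -0.55 (others 0.01 to 0.12) and for the J protein Dnajc10 at -0.46 (others -0.01 to 0.06), animal 73 was high for Txndc11 at 0.39 (others -0.09 to -0.01), and animal 81 was high for Xbp1 at 0.59 (others -0.18 to -0.06). In controls, animal 80 was high for Txndc12 at 0.40 (others -0.04 to 0.02), animal 82 was low for Canx at -0.48 (others -0.01 to 0.04), and animal 70 was low for Manf at -0.34 (others 0.11 to 0.18).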

How the results depend on the processing

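Genes called among the 40 stayed at 0 in every fit, with a lowest adjusted p of 0.9896, but small log2 fold changes had no settled sign: 22 of the 40 changed sign in at least 1 tested fit (21 on leaving out 1 animal, 10 under another scaling, probe set rule, variance model or covariate). Within animals 69 to 73, values with no test, 4 more turned, Canx (-0.10), Syvn1 (-0.15), Derl1 (-0.027) and Derl2 (-0.093), so 14 kept their sign throughout. The cause was not tested. The genes called on the whole array, 15, were 1 with each gene tested alone, 8 with the animal number range as a covariate, 41 after leaving out the less variable genes, and 4 to 13 on leaving out 1 animal (8, 8, 13 and 12 without controls 70, 71, 80 and 82, and 7, 9, 4 and 7 without txnrd1-/- animals 69, 72, 73 and 81). Of the 40, those at an unadjusted p of at most 0.05 were 1 (Qsox1) with array weights and with each gene alone, and 0 to 2 on leaving out 1 animal: Txndc5 without 70, Dnajb9 and Syvn1 without 71, Qsox1 without 72 and Pdia6 without 73. The number correlated with Hspa5 at an adjusted p of at most 0.05 was 2 with each gene taken from its most variable probe set, Tmx1 (r = 0.91) and Hyou1 (r = 0.90), both with an adjusted permutation p of 0.011 by Pearson's r and 0.14 by Spearman's rho. The isomerase median minus the other median was 0.044 within animals 69 to 73 and -0.14 within 80 to 82. Within 80 to 82 the median of the other genes was 0.083, and animal 81 was the only txnrd1-/- liver. After quantile normalization the sign turned for Creld2 (0.068) and Manf (0.040). With the most variable probe set the sign turned for Qsox1 (0.0035) and Edem1 (0.059). With the median of probe sets the sign turned for Hyou1 (-0.043), Xbp1 (0.017) and Atf6 (0.012). With array weights the sign turned for Erp29 (0.0028), Creld2 (0.15), Manf (0.072) and Atf6 (0.015). With the number range as a covariate the sign turned for Pdia4 (-0.0045), Erp29 (0.019), Hyou1 (-0.036), Creld2 (0.014), Xbp1 (0.084), Atf6 (0.011), Edem1 (0.0018) and Sec61b (-0.032). Leaving out 1 animal gave log2 fold changes of -0.24 to 0.13 for Tmx1, -0.090 to 0.065 for Edem1, -0.085 to 0.084 for Txndc11, -0.090 to 0.20 for Tmx3, -0.14 to 0.016 for Hspa5, -0.14 to 0.022 for Hsp90b1, -0.18 to 0.072 for Xbp1, -0.094 to 0.028 for Ern1, -0.040 to 0.10 for Pdia4 and -0.11 to 0.27 for Ero1b. For the rest whose sign turned it gave -0.33 to 0.27 for Creld2, -0.068 to 0.21 for Sec61b, -0.018 to 0.20 for P4hb, -0.17 to 0.057 for Erp29, -0.013 to 0.15 for Dnajc3, -0.061 to 0.22 for Dnajc10, -0.065 to 0.087 for Hyou1, -0.13 to 0.019 for Atf6, -0.33 to 0.059 for Sdf2l1, -0.26 to 0.082 for Manf and -0.13 to 0.012 for Sel1l. Other scalings moved the median of all genes to 0.00 or -0.01. A filter on signal and other pseudocounts were not run because the values are ratios. No paired analysis was possible because the genotypes share no animal number.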
